A study of Mus musculus with 16 samples.

Results

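Potassium channel genes were followed through the transcriptome of mouse dorsal root ganglia (DRG) as all protein-coding genes whose symbol starts with Kcn. The table holds 94 such genes among 36722 genes, and 70 of them had a mean over the 16 libraries of at least 6.99 on the log2 scale, or a scaled value of 31.8, and were tested. The other 24 lay under this limit, Kcnj6 nearest to it from below (6.95), Kcna5 (6.92) and Kcnn3 (6.86) next, and Kcnab3 (7.02), Kcnj9 (7.02) and Kcnj4 (7.04) were the lowest genes above it. Scaled values are whole numbers decoded from the deposited log2 values. They are not read counts, and the read depth is unknown.

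All mice were C57BL/6 and had received 20 µl of 2% carrageenan into the hind paw, a model of persistent inflammatory pain. On day 6 they were injected intrathecally with PBS (vehicle, 5 libraries), with 1 µg of IL4-10 FP, a fusion protein of interleukin 4 and interleukin 10 (6 libraries), or with 0.5 µg each of IL4 and IL10 as separate proteins, called the combination here (5 libraries). The ganglia of lumbar levels L3 to L5 were taken 6 hours later, so every group, vehicle included, carries the inflammation, and no uninflamed group was analysed here. Age and sex are not given in the labels. Whether the libraries stem from separate mice is not stated in the labels. The p-values therefore rest on the spread between these libraries only, which may be technical.

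Potassium channels let potassium leave the cell, hold the resting potential of sensory neurons and end each action potential. Voltage-gated channels open on depolarisation, calcium- and sodium-activated channels follow the ions that enter during firing, inward rectifiers and two-pore-domain channels set the resting conductance, and accessory subunits change gating and transport to the membrane. In DRG neurons a loss of potassium current is known as a hallmark of sensitised nociceptors after nerve injury and inflammation. By these roles the 70 tested genes were 23 pore subunits of voltage-gated channels (Kcna, Kcnb, Kcnc, Kcnd, Kcnh and Kcnq), 9 electrically silent subunits that join voltage-gated channels (Kcnf, Kcng, Kcns and Kcnv), 7 calcium- and sodium-activated channels (Kcnma, Kcnn, Kcnt and Kcnu), 10 inward rectifiers (Kcnj), 10 two-pore-domain channels (Kcnk) and 11 accessory subunits (Kcnab, Kcne, Kcnip and Kcnmb).

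Promoter windows of 250 bases before the transcript start were available from RefSeq, build GRCm38.p6, for 51 of the 70 tested genes. The 4 windows below belong to the gene with the lowest p, among those with a window, that fell with the fusion protein (Kcnc4, chr3:107458899-107459148, minus strand), rose with the combination (Kcnip1, chr11:33680683-33680932, minus strand, 1 of 3 windows of that gene), fell with the combination (Kcnh2, chr5:24329592-24329841, minus strand) or was lower with the fusion protein than with the combination (Kcnj3, chr2:55435720-55435969, plus strand). Capitals mark matches, on either strand, to the GC box GGGCGG or to the spaced palindrome TTCNNNGAA, the pattern that STAT proteins downstream of cytokine receptors are known to bind.
Kcnc4: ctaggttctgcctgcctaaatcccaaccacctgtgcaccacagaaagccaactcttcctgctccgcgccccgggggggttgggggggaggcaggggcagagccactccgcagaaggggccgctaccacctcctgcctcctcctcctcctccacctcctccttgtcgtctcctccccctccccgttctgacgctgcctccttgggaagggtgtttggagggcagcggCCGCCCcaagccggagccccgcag
Kcnip1: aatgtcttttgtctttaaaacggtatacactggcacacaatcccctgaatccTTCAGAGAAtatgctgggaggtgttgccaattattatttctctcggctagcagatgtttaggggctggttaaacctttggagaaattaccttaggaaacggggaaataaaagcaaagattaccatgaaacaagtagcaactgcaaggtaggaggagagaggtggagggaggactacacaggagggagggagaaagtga
Kcnh2: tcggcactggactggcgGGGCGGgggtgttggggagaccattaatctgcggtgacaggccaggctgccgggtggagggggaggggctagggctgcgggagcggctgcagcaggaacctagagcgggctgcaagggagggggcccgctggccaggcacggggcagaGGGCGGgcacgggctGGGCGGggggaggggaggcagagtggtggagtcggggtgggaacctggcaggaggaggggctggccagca
Kcnj3: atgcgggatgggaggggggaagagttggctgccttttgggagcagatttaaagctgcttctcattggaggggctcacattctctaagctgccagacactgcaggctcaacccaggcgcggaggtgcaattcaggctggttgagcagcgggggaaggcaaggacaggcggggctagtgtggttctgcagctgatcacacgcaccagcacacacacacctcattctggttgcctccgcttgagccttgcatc

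The windows differed in base composition. The Kcnh2 window holds 73.6% GC with 3 GC boxes, that of Kcnc4 68% with 1 GC box, that of Kcnj3 58.4% with no match, and that of Kcnip1 44% with 1 match to TTCNNNGAA. Over all matched genes the median GC content of the window was 60.4% for tested Kcn genes and 52.4% for the 27025 genes of the RefSeq table. GGGCGG stood in a window of 62.7% of the matched Kcn genes and of 35.4% of all genes, TTCNNNGAA in 13.7% and 8.13%, TTCNNNNGAA in 7.84% and 6.76%, and the TATA box TATAAA in 5.88% and 14.3%, counting both strands. The AP-1 pattern TGANTCA stood in 5.88% and 7.82%, and the cAMP-response element TGACGTCA in 0% and 1.77%. A gene counted if any of its windows matched, and the 51 Kcn genes had 73 windows, against 32851 for all 27025 genes. Counted per window the contrast was smaller for GGGCGG (45.2% and 32.7%) and TTCNNNGAA (9.59% and 7.02%), and TATAAA stood in 4.11% and 12.4%. The GC box was present for 13 of 17 matched genes that fell with the fusion protein, 10 of 11 that fell with the combination and 5 of 10 that rose with it. TTCNNNGAA was present for 0 of 17, 1 of 11 and 3 of 10 of the same genes. A match describes these letters only.

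Per length of exon the most abundant Kcn gene was Kcna1, a pore subunit of axons that limits repetitive firing, with a mean scaled value of 2283 per kb. Kcnab2, a beta subunit that joins Kcna channels, followed with 2018 per kb, then the channel-interacting proteins Kcnip4 (1783 per kb) and Kcnip3 (1123 per kb), which bind Kcnd channels, and the A-type channel Kcnd1 (851 per kb). The two-pore-domain channel Kcnk1 reached 691 per kb, the inward rectifier Kcnj10 of satellite glia 288 per kb and the sodium-activated channel Kcnt1 313 per kb. By group mean Kcna1 and Kcnab2 changed order, with 2543 and 2246 per kb in vehicle libraries and 1899 and 1966 per kb in fusion protein libraries. Single libraries went either way in both of these groups, so this order is of the means only.

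**Figure D1:**
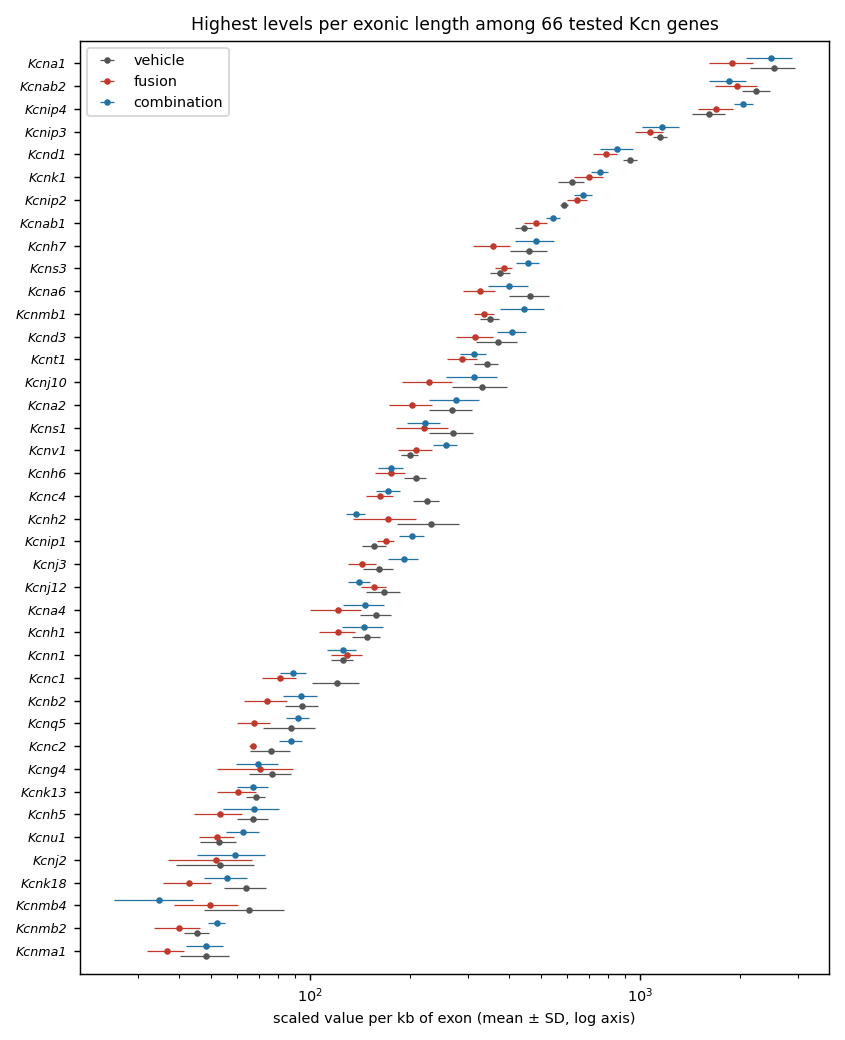
Mean scaled value per kb of exon (log axis) with its SD for the 40 most abundant of 66 tested Kcn genes in vehicle (n = 5), fusion protein (n = 6) and combination (n = 5) libraries. Kcna1 (2283 per kb over all libraries) and Kcnab2 (2018 per kb) lead, and levels of different genes span a much wider range than levels of different groups.

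The comparison of the fusion protein with vehicle asks what IL4-10 FP did to these transcripts in inflamed mice. Of the 70 tested Kcn genes 26 (37.1%) fell, 0 rose and 44 did not pass (limma, Benjamini-Hochberg adjusted over 13385 genes, threshold 0.05). Among all tested genes 13.7% fell and 12% rose. The median log2 difference of the 70 genes was -0.19 (the highest 0.23), against -0.02 over all tested genes, and 58 of the 70 differences were negative. In 8 Kcn genes (11.4%) every fusion protein library lay below every vehicle library, against 6.57% of all tested genes, and in 0 above, against 7.76%. At an unadjusted p under 0.05 there were 36 lower and 2 higher Kcn genes, and limma without trend and robust also called 0 higher. The median deviation of the 70 genes from their mean over all libraries was 0.0653 ± 0.0582 (SD, n = 5) in vehicle libraries, from -0.00784 to 0.152, and -0.101 ± 0.0512 (n = 6) in fusion protein libraries, from -0.169 to -0.0169. Of the 26 calls 12 held in every omission of a library, among them those of Kcna6, Kcnc1, Kcnc4, Kcng3, Kcnh7, Kcnj10, Kcnk10 and Kcnk18. The lowest count, 16, was reached without vehicle replicate 4, the vehicle library with the highest median of these genes. Among libraries with label numbers 1 to 8 alone (4 against 4) 15 fell, 11 of them among the 26.

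The voltage-gated pore subunits held 18 of the 26 calls. Of 23 tested genes 18 fell, 0 rose and 5 did not pass, with a median of -0.33, and all 23 differences were negative, the smallest in size being -0.14. All 23 stayed negative under quantile normalization and on the scale of log2 of the scaled value plus 1. Among label numbers 1 to 8 alone all 23 were negative and 7 fell. With trends in GC content and exonic length removed from each library 22 were negative, 15 fell and the median was -0.26. The summed scaled value of all 30 genes of this class, untested ones included, was 44853 to 56888 in vehicle libraries. In fusion protein libraries it was 34754 to 44341, just below the vehicle range. Kcna1, the largest part of this sum, had 10228 to 15182 and 7712 to 11283. By subfamily 4 of 4 Kcna, 1 of 3 Kcnd and 5 of 6 Kcnh genes fell. In bulk tissue fewer cells of a type and less RNA per cell cannot be told apart.

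**Figure D2:**
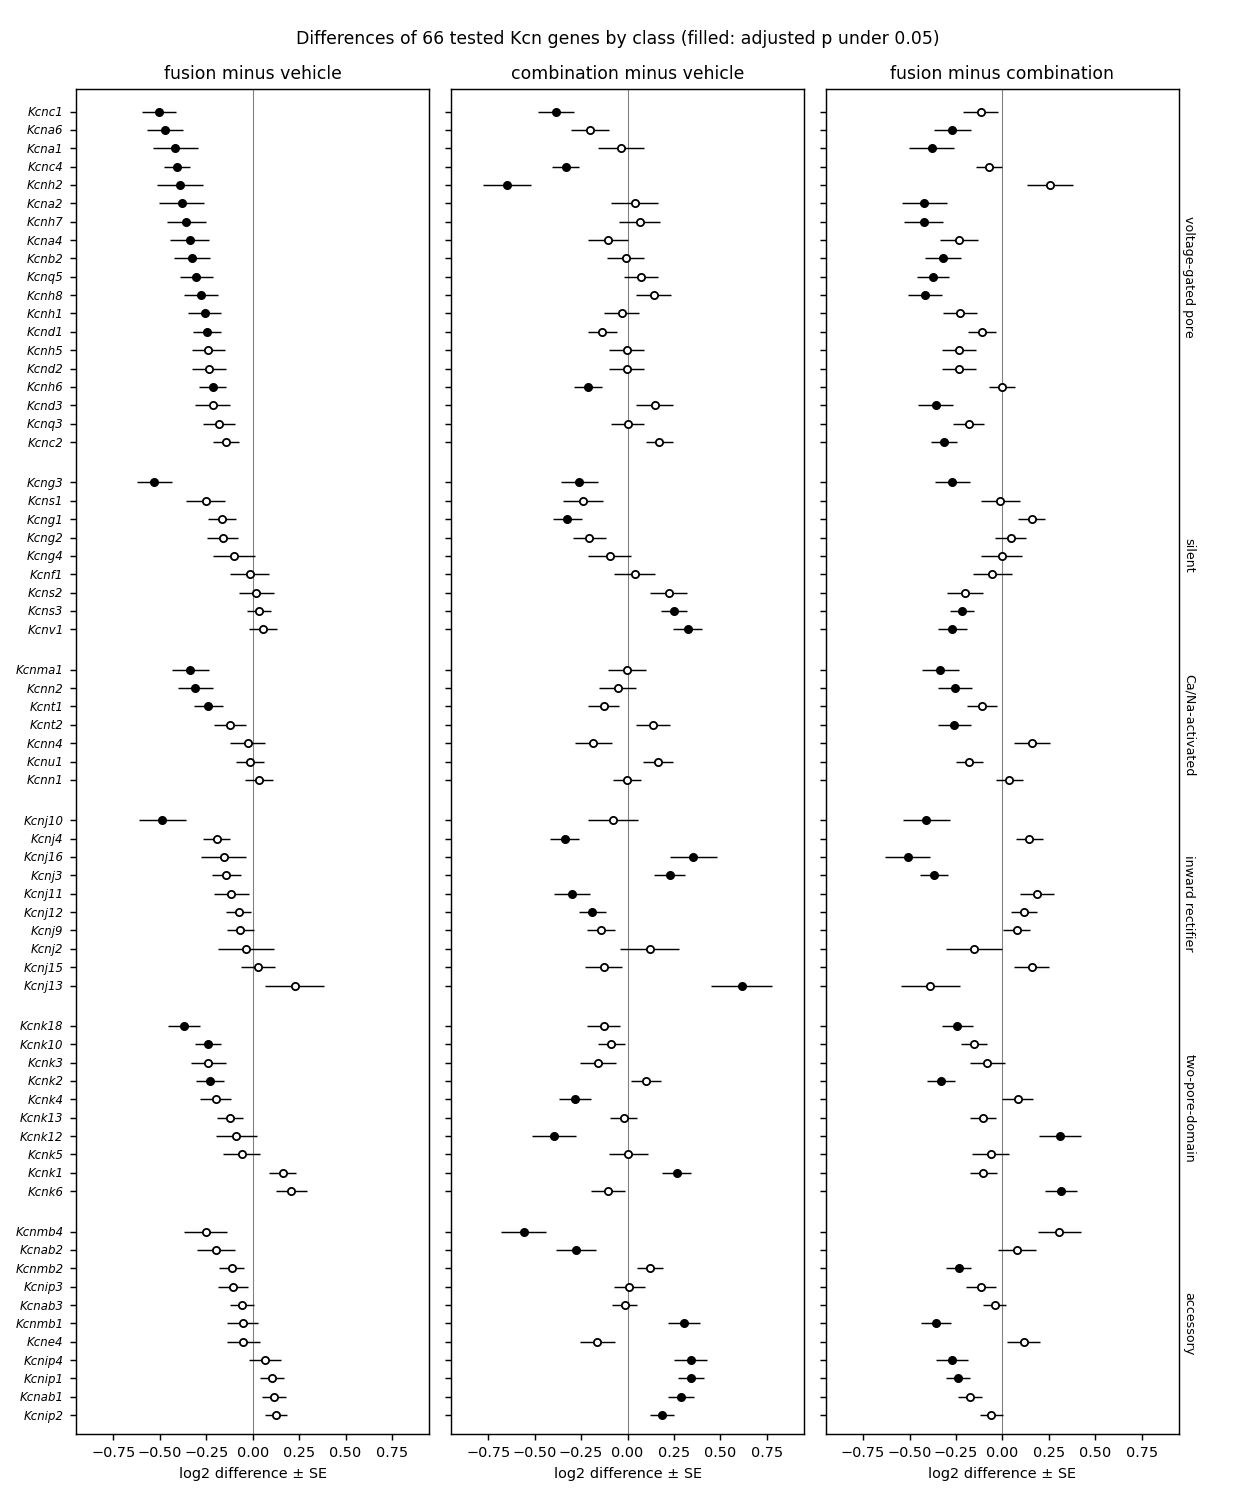
Log2 difference with its SE (limma) for 66 of the 70 tested Kcn genes in the 3 comparisons, grouped by class, with filled points for an adjusted p under 0.05. In fusion protein against vehicle all voltage-gated pore subunits shown lie left of zero, whereas the accessory subunits scatter around it with a median of -0.05.

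The Kcnc genes encode channels of very fast closing that let neurons fire at high rates. Kcnc4 (ENSMUSG00000027895, GRCm38 chromosome 3, 107438303 to 107459552), an inactivating member, was lower in both treated groups. Its vehicle libraries had 863, 813, 782, 937 and 745, fusion protein libraries 516, 599.5 and 670 as lowest, median and highest, and combination libraries 687, 597, 686, 624 and 568. No treated library reached the lowest vehicle library. The difference was -0.41 ± 0.07 (SE) for the fusion protein (adjusted p = 0.000571) and -0.33 ± 0.07 for the combination (adjusted p = 0.0019). With trends in GC content and length removed the combination difference was -0.18 and no longer called (adjusted p = 0.0842). Kcnc1 also fell with both treatments, by 0.50 ± 0.09 and 0.39 ± 0.10, and with the trends removed the combination difference of Kcnc1 was -0.05 (adjusted p = 0.752). Kcnc2 did not pass against vehicle in either comparison (-0.14 and 0.17).

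Kcnb2, a delayed rectifier of neuronal cell bodies, fell by 0.33 ± 0.10 with the fusion protein and had a combination difference of -0.01. The call of Kcnb2 ended without vehicle replicate 3 (adjusted p = 0.0533) and with the trends removed (adjusted p = 0.0915).

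The Kcna genes encode low-threshold channels of axons. All 4 tested genes fell with the fusion protein, 0 of 4 passed with the combination, and 3 of 4 were lower with the fusion protein than with the combination. Kcna1 (chromosome 6, 126640397 to 126646384) had 10228, 11929, 10893, 15182 and 12556 in vehicle libraries, 7712, 8896 and 11283 (lowest, median, highest) in fusion protein libraries and 9015, 13085, 11970, 11396 and 13904 in combination libraries. Only the highest fusion protein library reached into the vehicle range, while the combination libraries overlapped both groups. Kcna1 fell by 0.42 ± 0.12 with the fusion protein (adjusted p = 0.0158), a call that ended without vehicle replicate 4 (adjusted p = 0.054) and with the trends removed (-0.35, adjusted p = 0.085). The combination difference was -0.04 ± 0.13 (adjusted p = 0.849), and the fusion protein was below the combination by 0.38 ± 0.12 (difference -0.38, adjusted p = 0.0255). Kcna6 fell by 0.47 ± 0.10 with the fusion protein, and this call held in every alternative run. Kcna2 fell by 0.38 ± 0.12 and the inactivating channel Kcna4 by 0.34 ± 0.10. The Kcna2 call ended without vehicle replicate 3, 4 or 5 or fusion protein replicate 4 (adjusted p from 0.0506 to 0.0706) and with the trends removed (-0.18, adjusted p = 0.234), and that of Kcna4 ended without vehicle replicate 2 or 4 (adjusted p = 0.0602 and 0.0576).

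Among the A-type Kcnd channels, which delay firing below threshold, Kcnd1 (chromosome X, 7822289 to 7838280) had 5064, 4712, 4735, 4852 and 5277 in vehicle libraries and 3677, 4236 and 4520 (lowest, median, highest) in fusion protein libraries. Combination libraries had 4393, 4144, 4484, 4088 and 5359, of which 1 exceeded all vehicle libraries. The fusion protein libraries lay below all vehicle libraries. Kcnd1 fell by 0.25 ± 0.08 (adjusted p = 0.0224), and the call ended without vehicle replicate 5 (adjusted p = 0.0588) or fusion protein replicate 4 (adjusted p = 0.0518). The combination difference was -0.14 ± 0.08 (adjusted p = 0.191). Kcnd2 and Kcnd3 did not pass with the fusion protein (-0.24 and -0.21).

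Of the M-current channels of the Kcnq subfamily, slow brakes on firing that open near rest, Kcnq5 fell by 0.30 ± 0.09 with the fusion protein, and this call ended without vehicle replicate 4 (adjusted p = 0.0522). Kcnq3 had a difference of -0.18 and did not pass. Their combination differences were 0.07 and 0.00, and neither passed.

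The Kcnh subfamily holds channels of the ether-à-go-go type, of which Kcnh2 encodes the hERG channel. Kcnh2 (chromosome 5, 24319589 to 24351604) had 1540, 988, 982, 996 and 1126 in vehicle libraries, 562, 836.5 and 1090 (lowest, median, highest) in fusion protein libraries and 648, 645, 741, 631 and 669 in combination libraries. The combination libraries were the tightest group and lay below all vehicle libraries, while the fusion protein libraries overlapped both. Kcnh2 fell by 0.65 ± 0.13 with the combination (adjusted p = 0.000823), a call that held in every alternative run, and by 0.39 ± 0.12 with the fusion protein (adjusted p = 0.0254). The latter call ended without vehicle replicate 1 (adjusted p = 0.0654), the library with 1540. The fusion protein minus combination difference was 0.25 ± 0.12 (adjusted p = 0.118).

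Kcnh7, the Kcnh gene with the highest level per kb (429), had 5501, 7505, 7509, 7666 and 6926 in vehicle libraries, 4539, 5474 and 6302 in fusion protein libraries and 6106, 8645, 6929, 7098 and 8008 in combination libraries. Only vehicle replicate 1 lay within the fusion protein range, and the combination overlapped vehicle. Kcnh7 fell by 0.36 ± 0.11 with the fusion protein (adjusted p = 0.0179), had a combination difference of 0.07 ± 0.11 (adjusted p = 0.671), and was lower with the fusion protein than with the combination by 0.42 (difference -0.42 ± 0.11, adjusted p = 0.0101). Kcnh1 and Kcnh8 fell by 0.26 ± 0.09 and 0.28 ± 0.09 with the fusion protein, and Kcnh6 by 0.22 ± 0.07. These 3 calls ended in 8, 6 and 6 of the 11 omissions of a library, with an adjusted p of up to 0.118.

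**Figure D3:**
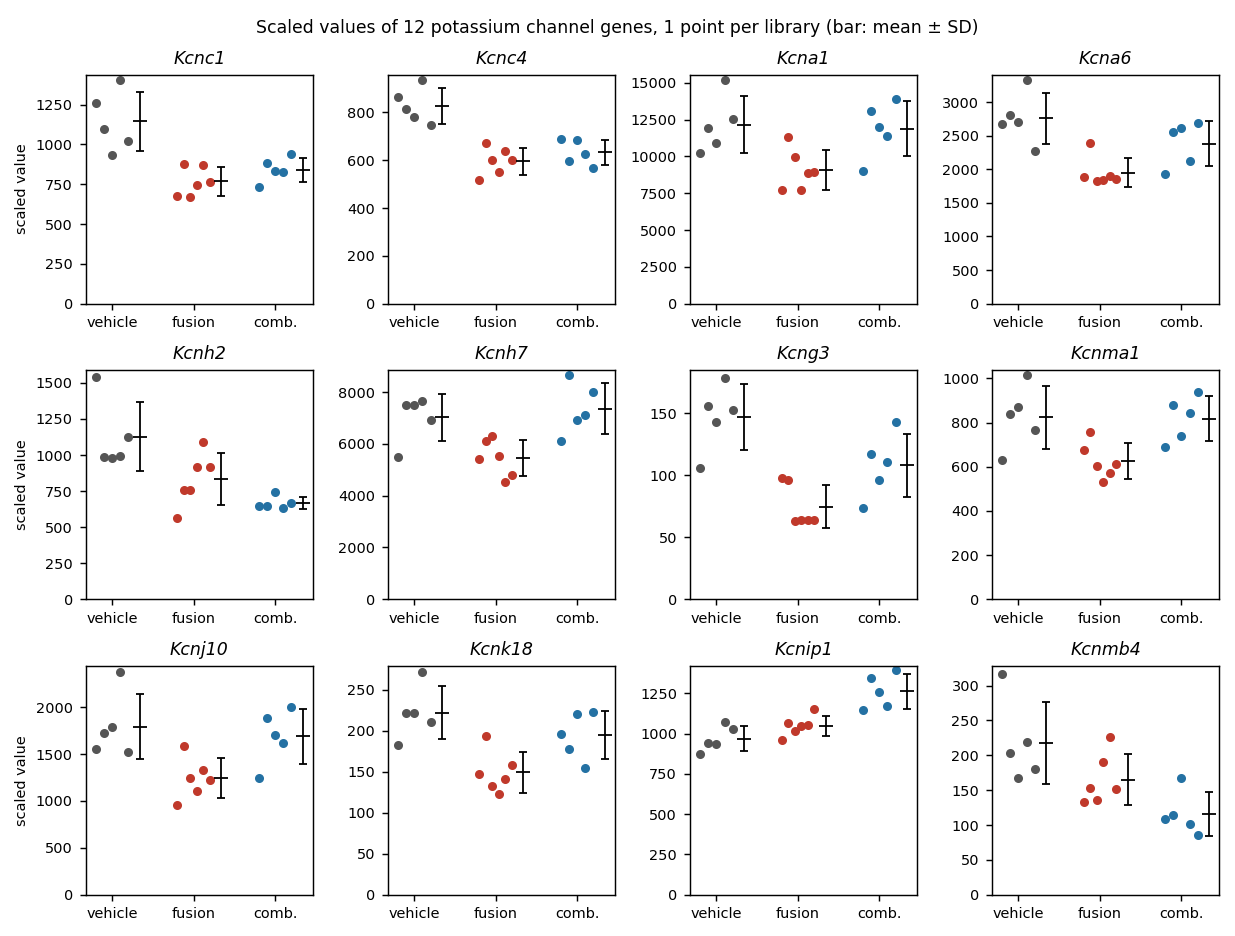
Scaled values of 12 Kcn genes in every library (points) with the mean and SD of each group (bar), for vehicle (n = 5), fusion protein (n = 6) and combination (n = 5). Kcnc4 separates both treated groups from vehicle, Kcna1 and Kcnj10 are lower in the fusion protein group, and Kcnip1 is highest in the combination group.

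The electrically silent subunits, which form channels only together with Kcnb subunits, mostly did not pass with the fusion protein. Of 9 tested genes 1 fell, 0 rose and 8 did not pass, with a median of -0.10. The gene that fell was Kcng3 (chromosome 17, 83585957 to 83631895), with 106, 156, 143, 179 and 153 in vehicle libraries, 63, 64 and 98 (lowest, median, highest) in fusion protein libraries and 74, 117, 96, 111 and 143 in combination libraries. Every fusion protein library lay below every vehicle library, and the combination lay between and overlapped both. Kcng3 fell by 0.53 ± 0.10 with the fusion protein (adjusted p = 0.000747), and this call held in every alternative run that tested the gene. Under a stricter filter, a mean of at least 2 above the lowest value, Kcng3 was not tested. Against vehicle the combination difference of Kcng3 was -0.26 ± 0.10 (adjusted p = 0.0486). That call ended in 8 of 10 omissions of a library, with an adjusted p of up to 0.127 (without combination replicate 1). Kcns1, a subunit of large myelinated neurons, had 909, 659, 657, 787 and 660 in vehicle libraries and 436, 625 and 707 in fusion protein libraries. Its difference of -0.25 ± 0.10 did not pass (adjusted p = 0.083). At an unadjusted p under 0.05 (limma) 3 of the 9 silent subunits were lower. Removing the trends in GC content and length gave 3 called lower, and label numbers 1 to 8 alone also gave 3.

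Of 7 calcium- and sodium-activated channels 3 fell with the fusion protein, 0 rose and 4 did not pass. Kcnma1 (chromosome 14, 23289431 to 24014491) encodes the large-conductance BK channel that shapes spike repolarisation. It had 630, 840, 869, 1014 and 765 in vehicle libraries, 531, 608 and 758 (lowest, median, highest) in fusion protein libraries and 690, 880, 739, 842 and 941 in combination libraries. Vehicle replicate 1 alone lay inside the fusion protein range, and the combination libraries lay inside the vehicle range. Kcnma1 fell by 0.34 ± 0.10 (adjusted p = 0.0184) and had a combination difference of -0.00 ± 0.10. The small-conductance channel Kcnn2 fell by 0.31 ± 0.09 and the sodium-activated channel Kcnt1 by 0.24 ± 0.08. The calls of Kcnma1, Kcnn2 and Kcnt1 all ended without vehicle replicate 4 (adjusted p = 0.0627, 0.0693 and 0.0825). That of Kcnn2 also ended without vehicle replicate 3 (adjusted p = 0.0504), and that of Kcnt1 without vehicle replicate 3 or 5 or fusion protein replicate 1, 3 or 4 (adjusted p up to 0.0852). With the trends in GC content and length removed Kcnma1 gave -0.11 (adjusted p = 0.233) and Kcnt1 -0.00 (adjusted p = 0.985).

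Among 10 inward rectifiers 1 fell with the fusion protein, 0 rose and 9 did not pass. This was Kcnj10 (chromosome 1, 172341210 to 172374085), the channel with which satellite glia clear potassium around neuronal cell bodies. Its scaled values were 1558, 1725, 1788, 2373 and 1520 in vehicle libraries, 953, 1235.5 and 1584 (lowest, median, highest) in fusion protein libraries and 1243, 1890, 1704, 1616 and 2001 in combination libraries. The fusion protein libraries lay below vehicle except 1 inside the vehicle range. Kcnj10 fell by 0.49 ± 0.13 (adjusted p = 0.00894), and this call held in every alternative run. The combination difference was -0.08 ± 0.13 (adjusted p = 0.677). Beside this, 0 of 7 other satellite glia markers passed in either direction with the fusion protein, where 25.8% of all tested genes passed. The summed scaled value of these markers was 33994 to 54050 in vehicle and 36656 to 71499 in fusion protein libraries.

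The two-pore-domain channels carry the background potassium current of resting neurons. Of 10 genes 3 fell with the fusion protein, 0 rose and 7 did not pass. Kcnk18 (chromosome 19, 59219214 to 59237374), which encodes TRESK, a calcineurin-activated channel of sensory neurons, had 183, 222, 222, 272 and 211 in vehicle libraries, 123, 144 and 193 (lowest, median, highest) in fusion protein libraries and 196, 178, 221, 154 and 223 in combination libraries. All fusion protein libraries but the highest lay below the vehicle range. Kcnk18 fell by 0.37 ± 0.08 (adjusted p = 0.00374), a call that held in every alternative run, and its combination difference was -0.13 ± 0.09 (adjusted p = 0.269).

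The TREK channels Kcnk2 and Kcnk10, opened by stretch, warmth and lipids, fell by 0.23 ± 0.08 and 0.24 ± 0.07. Kcnk10 had 118, 164, 157, 163 and 171 in vehicle libraries and 100, 115 and 132 in fusion protein libraries, so that vehicle replicate 1 alone was within the fusion protein range. The adjusted p of Kcnk10 was 0.0168, and with the trends removed 0.0875. The call of Kcnk2 ended without vehicle replicate 2, 3 or 4 or fusion protein replicate 1 or 4 (adjusted p up to 0.0965). The highest difference of this class was that of Kcnk6, 0.21, which did not pass.

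Accessory subunits did not pass with the fusion protein. Of 11 tested genes 0 rose and 0 fell (limma; at an unadjusted p under 0.05, 1 was lower and 0 higher), with a median of -0.05 and a range of -0.25 to 0.13. With the trends in GC content and length removed Kcnab1 was higher (0.19, adjusted p = 0.0365), and Kcnmb2 (-0.24) and Kcnmb4 (-0.34) were lower.

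The comparison of the combination with vehicle asks the same of the separate cytokines. Of the 70 tested Kcn genes 11 (15.7%) rose, 16 (22.9%) fell and 43 did not pass, where 24.2% of all tested genes rose and 12.3% fell. Quantile normalization gave 5 that rose and 18 that fell, and over all tested genes 19.1% and 14.2%. The median difference was -0.03, against 0.06 over all tested genes. In 8 genes (11.4%) every combination library lay above every vehicle library and in 9 (12.9%) below, against 15.1% and 7.91% of all tested genes. With trends in GC content and exonic length removed 9 of the 70 rose and 5 fell, where 19.4% of all tested genes rose and 7.7% fell. Of the calls 4 of the 11 that rose and 5 of the 16 that fell were among these 9 and 5. With a covariate for late label numbers 4 rose and 15 fell, and of the 11 increases those of Kcnip1, Kcnip4 and Kcns3 kept their call. All combination libraries and 1 of 5 vehicle libraries carry late numbers, from 12 on, so number and treatment cannot be fully told apart here. The count of genes that fell was 10 without vehicle replicate 1, the only omission to move it by over 1.5 times.

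The accessory subunits held 5 of the 11 increases. Of 11 tested genes 5 rose, 2 fell and 4 did not pass, with a median of 0.12, while quantile normalization left 1 that rose. Kcnip proteins bind Kcnd channels, speed their recovery and raise their number at the membrane, and 3 of 4 rose. Kcnip1 (chromosome 11, 33629339 to 33993152) had 871, 943, 933, 1069 and 1029 in vehicle libraries, 962, 1048 and 1150 (lowest, median, highest) in fusion protein libraries and 1146, 1346, 1255, 1169 and 1395 in combination libraries. Every combination library lay above every vehicle library, and the lowest combination values met the highest of the fusion protein. Kcnip1 rose by 0.34 ± 0.07 (adjusted p = 0.000888), a call that held in every alternative run. The fusion protein difference was 0.10 ± 0.07 (adjusted p = 0.263).

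Kcnip4 had 5217, 6187, 5460, 6877 and 5595 in vehicle libraries and 7395, 7966, 6928, 6977 and 7897 in combination libraries. The groups did not overlap, although vehicle replicate 4 came close. Kcnip4 rose by 0.34 ± 0.09 (adjusted p = 0.0064), and with the trends removed the difference was 0.10 (adjusted p = 0.277). Kcnip2 had 2080, 1950, 2012, 2052 and 2093 in vehicle libraries and 2434, 2111, 2488, 2333 and 2310 in combination libraries. It rose by 0.18 ± 0.06 (adjusted p = 0.0277), a call that ended without vehicle replicate 2 or 3 or combination replicate 3 (adjusted p = 0.072, 0.0571 and 0.0723). Kcnip3, also a calcium-binding transcription repressor, had a difference of 0.01.

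The beta subunit Kcnab1, which gives Kcna channels rapid inactivation, had 3728, 3700, 3562, 4102 and 3974 in vehicle libraries and 4500, 4750, 4471, 4645 and 5048 in combination libraries, again without overlap. It rose by 0.29 ± 0.07 (adjusted p = 0.0031), a call that ended with a covariate for late label numbers (0.22, adjusted p = 0.0645) and under quantile normalization (adjusted p = 0.0966). Kcnab2, the most abundant beta subunit, had 14363, 11477, 11975, 13161 and 11655 in vehicle libraries and 9418, 9692, 12689, 9689 and 10211 in combination libraries. Combination replicate 3 alone lay inside the vehicle range. The Kcnab2 difference was -0.28 ± 0.11 (adjusted p = 0.0465), and the call ended in 8 of 10 omissions of a library (adjusted p from 0.0503 to 0.124) and with the trends removed (-0.03, adjusted p = 0.83).

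Subunits of the BK channel moved in opposite directions. Kcnmb1 (chromosome 11, 33963013 to 33973641), a beta subunit that raises calcium sensitivity, lies on the other strand within the span of Kcnip1. It had 1332, 1482, 1446, 1483 and 1602 in vehicle libraries, 1264, 1420 and 1564 in fusion protein libraries and 2221, 1764, 1918, 1459 and 1919 in combination libraries. All combination libraries but replicate 4 lay above both other groups. Kcnmb1 rose by 0.30 ± 0.09 (adjusted p = 0.00952), and this call ended under the same settings (0.26, adjusted p = 0.0856, with the covariate, and adjusted p = 0.0994).

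Kcnmb4 (chromosome 10, 116417861 to 116473878), the neuronal beta subunit, had 317, 203, 167, 219 and 181 in vehicle libraries, 133, 152.5 and 226 in fusion protein libraries and 109, 115, 168, 102 and 85 in combination libraries. The combination libraries were the lowest, with 1 library at the bottom of the vehicle range. Kcnmb4 fell by 0.56 ± 0.12 (adjusted p = 0.0016), a call that held in every alternative run, and its fusion protein difference was -0.25 ± 0.12 (adjusted p = 0.118). The pore gene Kcnma1 had a difference of -0.00 in the same comparison.

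Of the 23 voltage-gated pore subunits 7 fell with the combination, 0 rose and 16 did not pass, with a median of -0.04. Kcnc1, Kcnc4, Kcnh2 and Kcnh6 were among those that fell. With the trends removed 2 were called lower, Kcnh2 among them, and 2 higher, Kcnd3 among them (0.25, adjusted p = 0.0343). Kcnh6, a relative of Kcnh2, fell by 0.21 ± 0.08, and this call ended without vehicle replicate 1, 3 or 5 or combination replicate 2 or 4 (adjusted p up to 0.0995). Of the calcium- and sodium-activated channels 0 of 7 passed (limma; 0 also at an unadjusted p under 0.05), with a median of -0.00.

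Of the inward rectifiers 3 rose, 3 fell and 4 did not pass. Kcnj13 rose by 0.61 ± 0.17 (adjusted p = 0.00798) from a low level, with vehicle libraries between 7 and 38 and combination libraries between 56 and 112, and with the trends removed its difference was 0.28 (adjusted p = 0.269). Kcnj3, the GIRK subunit that opens when opioid and other inhibitory receptors release G protein, had 741, 820, 852, 984 and 808 in vehicle libraries and 904, 931, 1003, 1011 and 1170 in combination libraries. The groups overlapped at vehicle replicate 4. Kcnj3 had a difference of 0.23 ± 0.08 (adjusted p = 0.0349), a call that ended in 7 of 10 omissions of a library (adjusted p up to 0.101), and that of Kcnj16 (0.35 ± 0.13, adjusted p = 0.0353) ended in 6 of 10 (adjusted p up to 0.112). Kcnj4, a strong rectifier, fell by 0.34 ± 0.08 (adjusted p = 0.00196), with 60, 47, 50, 45 and 43 in vehicle libraries and 30, 34, 19, 24 and 19 in combination libraries, which did not overlap. With the trends removed the adjusted p of Kcnj4 was 0.0745, and 0 of the 10 inward rectifiers passed. The other 2 that fell were Kcnj11 (-0.30), the pore of ATP-sensitive channels, and Kcnj12 (-0.19). Their calls ended in 3 and 8 of 10 omissions of a library.

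Of the silent subunits Kcns3 (0.25 ± 0.07) and Kcnv1 (0.32 ± 0.08) rose and Kcng1 (-0.32 ± 0.08) and Kcng3 fell. Kcng1 had 89, 72, 62, 89 and 63 in vehicle libraries and 33, 42, 54, 40 and 54 in combination libraries, which did not overlap. With the trends removed Kcns3, Kcnv1 and Kcng1 had 0.07, 0.12 and -0.13 and did not pass. Of the two-pore-domain channels Kcnk1 rose (0.26 ± 0.08) and Kcnk12 (-0.39 ± 0.12) and Kcnk4 (-0.28 ± 0.09) fell. The Kcnk4 call ended without vehicle replicate 1 (adjusted p = 0.0565) and with the trends removed (-0.07, adjusted p = 0.442). The Kcnk1 call ended with the trends removed (0.19, adjusted p = 0.0572), under quantile normalization (adjusted p = 0.093) and with a covariate for late label numbers (adjusted p = 0.279), and with this covariate the Kcnk12 call ended too (adjusted p = 0.0581). In Kcnk12 vehicle replicate 1 had 112 and the other vehicle libraries 33 to 41, against 16 to 35 in combination libraries.

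The direct comparison of the fusion protein with the combination asks whether linking both cytokines in a single molecule changed these transcripts differently from giving them side by side. It shares its libraries with both comparisons above. All 5 combination libraries and 2 of the 6 fusion protein libraries carry late label numbers. Number and treatment cannot be fully told apart in this comparison either. Of the 70 tested Kcn genes 25 (35.7%) were lower with the fusion protein, 2 (2.86%) were higher and 43 did not pass, against 22.2% and 7.35% of all tested genes (29.5% in either direction). The median difference was -0.15, against -0.09 over all tested genes. In 7 genes (10%) every fusion protein library lay below every combination library, against 6.44% of all tested genes, and in 1 gene (1.43%) above, against 3.09%. Quantile normalization left 11 lower and 1 higher, and 10.5% and 7.26% over all tested genes. With trends in GC content and length removed 25 were lower, 19 of the same genes among them, and 0 higher. Over all tested genes 14.8% were then lower and 4.24% higher. The count of lower genes was 12 without combination replicate 2, 15 without fusion protein replicate 4 and 15 without combination replicate 5, and reached 31 without combination replicate 1. The count of higher genes was 4 without fusion protein replicate 1 and 1 without fusion protein replicate 4, 5 or 6 or combination replicate 2 or 4. With the trends removed and a covariate for late label numbers 9 were lower, 6 of the 25 among them. The calls of Kcnc2, Kcnq5, Kcnj3 and Kcnj16 ended in this setting (adjusted p = 0.329, 0.304, 0.235 and 0.267). That of Kcnk2 ended there and among label numbers from 12 on (adjusted p up to 0.155).

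Of the voltage-gated pore subunits 10 of 23 were lower and 0 higher, with a median of -0.23. Kcnh8 (chromosome 17, 52602709 to 52979194), a slowly gating channel of the Kcnh subfamily, had 77, 97.5 and 126 (lowest, median, highest) in fusion protein libraries and 130, 158, 147, 164 and 224 in combination libraries. The groups did not overlap, and vehicle libraries, with 110, 148, 143, 160 and 135, overlapped both. The difference was -0.42 ± 0.09 (adjusted p = 0.00647), a call that held in every alternative run that tested the gene. The stricter filter left Kcnh8 untested. Kcnc2 had 467, 475.5 and 495 in fusion protein libraries, a very narrow range, and 543, 649, 604, 655 and 671 in combination libraries, without overlap (difference -0.32 ± 0.07, adjusted p = 0.00715). Vehicle libraries of Kcnc2 spanned 445 to 655.

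Kcnq5 had 455, 497 and 603 in fusion protein libraries and 613, 759, 710, 722 and 733 in combination libraries, without overlap. The difference was -0.37 ± 0.09 (adjusted p = 0.00827). Kcnd3 was lower by 0.36 (difference -0.36 ± 0.09, adjusted p = 0.0128), and this call held in every alternative run. Kcna1, Kcna2, Kcna6, Kcnb2 and Kcnh7 were also among the 10. Of these Kcnh7 held its call in every omission of a library, whereas the other 4 lost it in 1 to 8 omissions. Kcnc1 and Kcnc4, which were lower than vehicle in both treated groups, did not pass here, with differences of -0.12 and -0.07.

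Of the 10 inward rectifiers 3 were lower. Kcnj16, a partner subunit of Kcnj10, had 49, 116.5 and 141 in fusion protein libraries, 78, 113, 147, 185 and 142 in vehicle libraries and 175, 211, 191, 207 and 182 in combination libraries. The combination libraries lay above all fusion protein libraries, and vehicle replicate 4 alone reached into their range. The difference was -0.51 ± 0.12 (adjusted p = 0.00877). Kcnj3 had 660, 743 and 843 in fusion protein libraries, all below the combination values given above, with a difference of -0.37 ± 0.08 (adjusted p = 0.00553). Kcnj10 was lower by 0.41 (difference -0.41 ± 0.13, adjusted p = 0.0246), a call that ended without fusion protein replicate 4 or combination replicate 2 or 5 (adjusted p up to 0.0711). Beside it 3 of 7 satellite glia markers (Fabp7, Ednrb and Cdh19) were lower as well, where 22.2% of all tested genes were lower. The part of these markers' cells in the Kcnj10 difference was not tested.

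Kcnk2 had 116, 142.5 and 152 in fusion protein libraries and 218, 188, 216, 169 and 210 in combination libraries. The groups did not overlap, and the difference was -0.33 ± 0.08 (adjusted p = 0.0074). Kcnmb1 was lower by 0.36 (difference -0.36 ± 0.08, adjusted p = 0.00766), with combination replicate 4 alone inside the fusion protein range. Kcnk6, a weakly expressed two-pore-domain channel, was 1 of the 2 genes that were higher with the fusion protein, with 42, 48.5 and 87 against 33, 18, 34, 28 and 37, which did not overlap (0.31 ± 0.09, adjusted p = 0.0141). The other was Kcnk12 (0.31 ± 0.11, adjusted p = 0.0467), whose call ended in 8 of 11 omissions of a library. With the trends removed neither passed (adjusted p = 0.103 and 0.218).

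Gene length and GC content moved with these differences. The 26 Kcn genes that fell with the fusion protein had a median exonic length of 5970 bases, and the 44 that did not pass 4017. The 11 that rose with the combination had a median GC content of 41.6% (36.2 to 50.4) and the 16 that fell 52.7% (45.7 to 57.3). Across the 70 genes the Spearman correlation of the difference with exonic length was -0.372 for the fusion protein against vehicle (-0.443 over 13370 tested genes) and 0.108 for the combination (-0.118). With GC content it was -0.132 for the fusion protein (-0.0663 over all) and -0.65 for the combination (-0.52). For the fusion protein against the combination it was -0.39 with length and 0.641 with GC content. These are descriptions across genes of the same libraries, and genes are not independent replicates. With both trends removed 27 of the 70 genes were lower with the fusion protein than with vehicle and 1 was higher. Over all tested genes 13% were then lower and 11.1% higher. Of the 26 fusion protein calls 18 were among these 27, those of Kcna6, Kcnc4, Kcng3, Kcnj10 and Kcnk18 included.

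**Figure D4:**
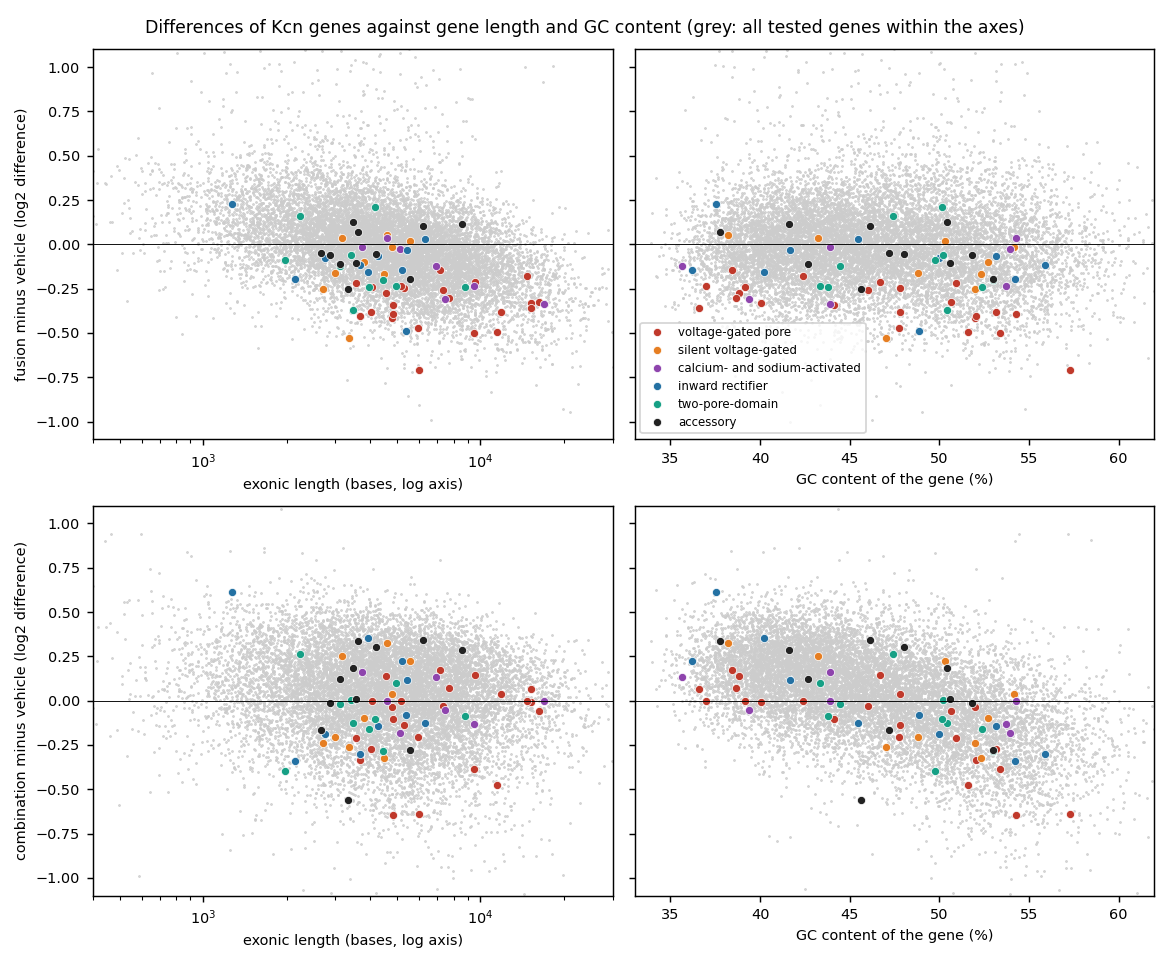
Log2 difference from vehicle against exonic length (log axis, left) and GC content in percent (right) for the fusion protein (top) and the combination (bottom), with the 70 tested Kcn genes over all tested genes in grey. The fusion protein differences slope down with length in both sets, and the combination differences slope down with GC content.

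Other genes that act with potassium channels were counted from fixed lists. The HCN channels carry the depolarising pacemaker current that opposes potassium channels. Among those that fell with the fusion protein were Hcn2 (by 0.49 ± 0.09), Hcn3 (by 0.26 ± 0.08) and Hcn4 (by 0.33 ± 0.08). With the combination Hcn2, Hcn3 and Hcn4 fell by 0.50 ± 0.10, 0.40 ± 0.09 and 0.48 ± 0.08. Both calls of Hcn4 (adjusted p = 0.0959 and 0.0631) and the combination call of Hcn2 (adjusted p = 0.0761) ended with the trends removed. Of 25 tested partners not named Kcn, 5 fell and 1 rose with the fusion protein, with a median of -0.08, where 13.7% of all tested genes fell and 12% rose. Dlg4, the scaffold that clusters Kcna channels, fell by 0.49 ± 0.07, Cntn2, an adhesion protein of the juxtaparanode, by 0.46 ± 0.09, and Ank3, which anchors Kcnq channels at the axon initial segment, by 0.48 ± 0.11. The gene that rose was Calm2 (0.44 ± 0.06), a calmodulin gene. With the trends removed Ank3 (-0.13, adjusted p = 0.188) and Cntn2 (-0.25, adjusted p = 0.0511) were no longer called, and Dlg4 had -0.21 (adjusted p = 0.031). With the combination 3 of the 25 rose and 3 fell, where 24.2% of all tested genes rose and 12.3% fell. Dpp10, which speeds Kcnd channels, was among those that rose (0.49 ± 0.11).

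Of 12 tested pumps and cotransporters 1 rose and 1 fell with the fusion protein, with a median of -0.14. With the combination 1 rose and 3 fell, with a median of 0.02. Among all tested genes 12% rose and 13.7% fell with the fusion protein, and 24.2% rose and 12.3% fell with the combination. The gene that rose was Atp1b3, a sodium pump beta subunit, by 0.27 ± 0.08 with the fusion protein and 0.44 ± 0.08 with the combination. With the trends removed its fusion protein call ended (adjusted p = 0.375). Of 17 repressors and chromatin regulators known to act on potassium channel genes, 4 fell and 0 rose with the fusion protein. Among them were the DNA methyltransferase Dnmt3a (-0.41 ± 0.07), the histone deacetylase Hdac4 (-0.33 ± 0.06) and Rcor1 (-0.28 ± 0.10), while Rest, the repressor that silences neuronal genes, had 0.07 and did not pass. Dnmt3a and Hdac4, with the trends removed, each had -0.10 and were no longer called (adjusted p = 0.269 and 0.282), and Rcor1 had -0.28 (adjusted p = 0.0308).

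The tissue label was checked against marker lists. The 20 sensory neuron markers were all tested and summed to 347448 to 427261 per vehicle library, 332733 to 493289 per fusion protein library and 369351 to 457834 per combination library. With the fusion protein 2 of them rose (Calca and Stmn2) and 3 fell (Elavl3, Rbfox3 and Ntrk3), and with the combination 6 rose and 4 fell. For these and the next counts, 12% of all tested genes rose and 13.7% fell with the fusion protein. With the combination 24.2% rose and 12.3% fell. Macrophage markers rose in 5 of 11 with the fusion protein (2050 to 3739 summed in vehicle, 3041 to 5082 in fusion protein libraries) and in 2 of 11 with the combination (2608 to 3639). Neutrophil markers rose in 2 of 6 with the fusion protein (1240 to 2983 and 1976 to 8724). Satellite glia markers rose in 4 of 7 with the combination, beside a summed 41667 to 52162. Skeletal muscle markers, of which 0 of 7 passed, reached 4034 in 1 vehicle library, and of 8 spinal cord markers 3 were tested and Olig2 was at the floor in every library. The part of these cell types in the Kcn differences was not tested.

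Counting by strand is not stated in the sources used here, and 22 tested Kcn genes share exon bases with a gene on the opposite strand and 2 with one on the same strand. Among those named above they include Kcna6, Kcnab1, Kcnab3, Kcnd3, Kcnh7, Kcnip4, Kcnj3, Kcnj9, Kcnj13, Kcnk1, Kcnk2, Kcnma1, Kcnmb4, Kcnn2 and Kcnq5 on the opposite strand and Kcnab2 and Kcnk4 on the same strand. Their reads cannot be fully told apart from those of the overlapping gene. Of the calls that held in every alternative run that tested the gene, some are of genes that do not overlap the exons of another gene. These are the calls of Kcnc4, Kcng3, Kcnj10, Kcnk18, Kcnh2, Kcnh8 and Kcnip1.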

How the data were processed

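Per the labels' protocols, RNA was taken from DRG with Trizol and libraries were made by poly A selection. Per the submitters' processing notes, FastQC, STAR, HTSeq and DESeq2 were used with build GRCm38; no versions are given. The authors deposited variance-stabilised log2 values, and GC content is in percent per the file headers. Inverting the transform, with its 2 parameters taken from the 60 smallest of 11441 different values, turned 100% of the values into whole numbers within 0.01; these scaled values summed to 17.8 ± 0.612 M per vehicle, 17.8 ± 0.756 M per fusion protein and 19.6 ± 0.973 M per combination library. The lowest value, 5.99, decodes to 0 and undetected genes sit at 6.17; near this floor log2 differences are compressed.

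Genes with a mean of at least 1 above the lowest value were tested, 13385 in all. The 3 comparisons shared 1 model of 16 libraries in limma 3.58.1 under R 4.3.3 (lmFit, contrasts.fit and eBayes, its trend and robust options on). Tests were two-sided, p-values were adjusted by the Benjamini-Hochberg method over the 13385 genes, and calls needed an adjusted p under 0.05; every adjusted p comes from this tool. The script was tested on simulated data. Python 3.11.15 did the rest. Exonic lengths came from GENCODE M21 on GRCm38, which matched 36345 genes and gave 99.9% of the tested genes a length. In 1 alternative, trends of each library with GC content and log2 length (natural splines) were removed. The labels number libraries from 1 to 8 and from 12 to 19; 1 vehicle, 2 fusion protein and 5 combination libraries have late numbers, tried as a covariate. The 15 pairs of libraries with the same replicate number had correlations of deviations from -0.196 to 0.598, 7 of them over 0.1. Pairs with different numbers were not compared, so whether replicate numbers pair the libraries was not decided.

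The genes, classes and lists were chosen with earlier results of these data known, so no p is adjusted over a list. Values in every library (for the 6 fusion protein libraries the lowest, median and highest) are given for up to 3 genes of each class with the lowest p in fusion protein against vehicle, 6 called genes of each other comparison with the lowest p and the 6 genes with the highest mean. Other Kcn genes are given by differences, counts or ranges; some genes that this rule selects are not reported here by name, and Kcnk6 and Kcnj16 were given with values after these were seen.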

Additional observations from a re-analysis of the deposited data

Results flagged for a closer look

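In groups of 5 or 6 libraries, 12 values of 210 groups (70 tested Kcn genes in 3 treatments) stood far from the rest of their group by Dixon's criterion, which chance meets in about 1 of 20 groups. Vehicle replicate 1 held 4 of them. It was highest for Kcnj12 (557, the others 429 to 443), Kcnk12 (112, the others 33 to 41) and Kcnn4, a calcium-activated channel of immune and other cells (224, the others 126 to 147), and lowest for Kcnk10 (118, the others 157 to 171). Fusion protein replicate 1 was lowest for Kcnj16 (49, the others 113 to 141) and Kcnn2 (107, the others 157 to 188) and highest for Kcnj9 (50, the others 29 to 36). Fusion protein replicate 2 was highest for Kcna6 (2385, the others 1819 to 1900) and replicate 3 lowest for Kcng1 (40, the others 58 to 66). In the combination group replicate 3 was highest for Kcnab2 (12689, the others 9418 to 10211), replicate 5 lowest for Kcnj9 (19, the others 30 to 34) and replicate 4 lowest for Kcnn4 (108, the others 124 to 129).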

How the results depend on the processing

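For the fusion protein against vehicle, the count of Kcn genes that fell was 15 with label numbers 1 to 8 alone (4 libraries against 4, with 11 of the 26 genes) and 16 to 27 when libraries were left out in turn; 1 rose with the late number as a covariate or with GC and length trends removed, and 2 with both. The median difference was -0.114 without a filter and -0.265 on the log2 of the scaled value plus 1. For the combination against vehicle, the count that rose was 5 with quantile normalization, 4 with the late number, 2 with trends removed and the late number, and 8 to 14 on leaving libraries out; the count that fell was 10 with the stricter filter, 5 with trends removed, 7 with the replicate block as well, 2 with the late number as well, and 10 to 15 on leaving libraries out. With trends removed and the late number, 5 called genes turned sign and lost the call: Kcnj11 (0.044), Kcnj13 (-0.048), Kcnj16 (-0.047), Kcnj3 (-0.026) and Kcnv1 (-0.004). Between the fusion protein and the combination, the count higher was 1 with the stricter filter, no filter, quantile normalization, the replicate block or the late number, 0 with trends removed (alone, with the block or with the late number), 4 in label numbers from 12 on, and 1 to 4 on leaving libraries out; the count lower was 11 with quantile normalization, 9 with trends removed and the late number, and 12 to 31 on leaving libraries out, and the median was -0.077 without a filter. The median ranged on leaving libraries out from -0.202 to -0.151, from -0.085 to 0.002 and from -0.159 to -0.137 in the 3 comparisons. The cause of these changes was not tested, except that fewer genes are tested under the stricter filter and fewer libraries are used in label ranges and omissions.

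The replicate block gave 0 higher and 25 lower, 12 higher and 14 lower, and 1 higher and 24 lower in the 3 comparisons. Whether the data call for this block was not decided. Fusion protein replicate 6 has no partner and adds nothing to the block. Of 80 calls of single genes the block kept 72, the fit without trend and robust 80, and the removal of GC and length trends 46. Over all omissions of a library 690 of 853 values kept the call, 163 lost it and 0 turned sign. The comparison of the combination with vehicle could not be run within a range of label numbers, since 1 vehicle library has a late number. The unknown read depth limits what can be said of genes near the floor.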
